A study of Mus musculus with 30 samples.

Results

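Progesterone synthesis in the mouse ovary was followed through 6 genes: Star, Cyp11a1, Hsd3b1, Fdx1, Fdxr and Nr5a1. They were picked by name for their place in the pathway, with earlier results of these data known. All 6 were present in the deposited table of 18022 genes, and all 6 were among the 14740 genes abundant enough to be tested. Star protein carries cholesterol into the mitochondrion, where the enzyme encoded by Cyp11a1 cuts off its side chain to give pregnenolone. Electrons for that cut pass from the reductase encoded by Fdxr to the small iron-sulphur protein encoded by Fdx1 and on to the enzyme. Hsd3b1 encodes an enzyme that turns pregnenolone into progesterone, and Nr5a1 encodes steroidogenic factor 1, a transcription factor that switches on steroid genes. In the ovary the corpus luteum, which forms from the follicle after ovulation, is the main source of progesterone, and theca and interstitial cells also make steroids.

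Messenger RNA was taken from whole ovaries of CD1 mice, an outbred stock, all adult females. Mice had been dosed for 10 days with a phthalate plasticizer or with vehicle alone, and each of the 10 groups has 3 libraries, 30 in all. Di(2-ethylhexyl) phthalate, DEHP, was given at 20 or 200 ug/kg/day (the groups DEHP 20 and DEHP 200). Diisononyl phthalate, DiNP, was given at 20 or 100 ug/kg/day (DiNP 20 and DiNP 100). The same 4 treated groups and a vehicle group were collected 3 months after dosing or immediately after it (0 months). The labels give no age beyond adult and no stage of the oestrous cycle. They do not say whether the 3 libraries of a group come from separate mice, so p-values measure the spread between these libraries, which may in part be technical. Levels are given as deposited, in log2 CPM (CPM, counts scaled for library size). Back-transformed values summed to 907668 to 1164842 CPM per library. In whole ovaries, fewer cells of a type and less RNA per cell cannot be told apart.

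Promoter sequence from RefSeq was on hand for 4 of the 6 genes, with 5 windows in all, and the 3 that hold one of the shorter motifs described here are shown. Each window runs from 250 bases before to 50 bases after an annotated start of the gene on GRCm38.p6 and is written 5′ to 3′ on the gene's own strand. Capitals mark AGGTCA and TCAAGG on either strand, and TCAAGG on the other strand reads CCTTGA. Steroidogenic factor 1 is known to bind sites built around AAGGTCA or AAGGCCA, and these share letters with the shorter motifs.

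Cyp11a1, chr9:58014702-58015001, plus strand: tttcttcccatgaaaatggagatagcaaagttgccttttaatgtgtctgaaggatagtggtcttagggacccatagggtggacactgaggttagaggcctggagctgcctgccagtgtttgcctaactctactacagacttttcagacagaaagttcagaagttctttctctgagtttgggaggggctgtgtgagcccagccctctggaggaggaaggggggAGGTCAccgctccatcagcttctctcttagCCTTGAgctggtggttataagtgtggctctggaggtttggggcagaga
Hsd3b1, chr3:98859745-98860044, minus strand: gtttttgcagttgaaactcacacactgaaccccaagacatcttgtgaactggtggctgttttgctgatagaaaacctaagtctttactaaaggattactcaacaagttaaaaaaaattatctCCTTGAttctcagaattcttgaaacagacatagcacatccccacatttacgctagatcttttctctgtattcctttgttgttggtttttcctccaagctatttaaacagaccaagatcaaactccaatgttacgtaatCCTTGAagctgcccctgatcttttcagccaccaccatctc
Fdx1, chr9:51963553-51963852, minus strand: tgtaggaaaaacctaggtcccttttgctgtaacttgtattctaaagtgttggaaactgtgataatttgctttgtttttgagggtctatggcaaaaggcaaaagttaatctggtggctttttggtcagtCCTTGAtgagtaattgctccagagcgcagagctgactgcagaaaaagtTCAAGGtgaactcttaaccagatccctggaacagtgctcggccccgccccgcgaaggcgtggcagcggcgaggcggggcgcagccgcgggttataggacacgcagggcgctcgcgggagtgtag

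The full letters AAGGTCA and AAGGCCA, searched on both strands, were in 0 of the 5 windows of the 4 genes, and stood in 3.87% and 5.79% of all 17605 windows of the same length. The shorter motifs were added after these windows had been seen. Their matches here are therefore a description, and the shares over all windows beside them give no test. AGGTCA, which stands in 13.75% of all windows, was in 1 of the 5, the Cyp11a1 window shown, 28 bases before the start. TCAAGG, which stands in 12.94% of all windows, was found once in the same Cyp11a1 window, at 2 places in the Hsd3b1 window and at 2 places in the Fdx1 window. A second Cyp11a1 window, at chr9:57997774-57998073, and the Fdxr window held none of the 4 motifs. A match describes letters and is not a site.

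The median SD between libraries of a group over all tested genes was 0.246 log2, and 2 libraries from 1 group had an r of 0.908 to 0.980 with each other. By mean correlation with the other libraries, DEHP 200 replicate 3 at 0 months was lowest (0.930), followed by DiNP 100 replicates 3 (0.939) and 1 (0.953) at 3 months and DEHP 200 replicate 2 at 0 months (0.955). The DEHP 200 replicates 3 and 2 lay at the ends of the 0-month range of 9 corpus luteum marker genes, with summed levels of 579 and 13071 CPM, and time results are also given without both. That pair was chosen after its marker levels, which follow the members' levels, had been seen. Replicate 3 also had 239 CPM of 6 adipocyte markers, the highest of all libraries, beside 664 CPM of 10 oocyte markers and 6550 CPM of 11 granulosa markers. Of the adrenal cortex markers, Cyp11b1, an enzyme of corticosterone synthesis, stood between -3.34 and 2.67 log2 CPM over all libraries. Akr1b7 stood between -1.33 and 3.32 log2 CPM, and Mrap between 3.36 and 7.83 log2 CPM.

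Star (Entrez 20845, chr8:25808474-25815982) had the widest range of the 6 genes. At 3 months its level was 10.39, 13.03 and 13.34 log2 CPM with DEHP 20, 12.60, 8.81 and 12.96 with DEHP 200, 12.92, 12.80 and 11.63 with DiNP 20, 13.22, 12.28 and 13.04 with DiNP 100, and 10.18, 12.02 and 13.27 with vehicle. At 0 months it was 12.82, 7.95 and 10.62 log2 CPM with DEHP 20, 9.37, 12.70 and 6.18 with DEHP 200, 11.86, 11.75 and 10.46 with DiNP 20, 9.42, 10.95 and 12.88 with DiNP 100, and 9.60, 10.79 and 9.74 with vehicle. High and low libraries stood side by side in most groups, and every treated group overlapped vehicle at both times. Between its lowest library, DEHP 200 replicate 3 at 0 months with 72.6 CPM, and its highest, DEHP 20 replicate 3 at 3 months with 10372 CPM, Star differed 143-fold. Its SD between libraries of a group was 1.78 log2, higher than that of 99.5% of tested genes. Star made up 0.00799% to 1.00% of the summed CPM of a library.

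Cyp11a1 (Entrez 13070, chr9:57998024-58027031) spanned 32.2-fold, with an SD of 0.96 log2 between libraries of a group. At 3 months its level was 12.75, 13.34 and 13.14 log2 CPM with DEHP 20, 13.41, 11.83 and 13.37 with DEHP 200, 13.56, 13.40 and 12.85 with DiNP 20, 13.88, 13.09 and 14.09 with DiNP 100, and 12.21, 13.25 and 13.70 with vehicle. At 0 months it was 12.80, 11.73 and 12.44 log2 CPM with DEHP 20, 11.995, 13.98 and 9.08 with DEHP 200, 13.37, 13.03 and 12.86 with DiNP 20, 12.22, 12.22 and 13.63 with DiNP 100, and 12.20, 12.66 and 12.85 with vehicle. The 3 DiNP 20 libraries at 0 months all lay above the 3 vehicle libraries, and DEHP 200 replicate 3 at 0 months lay far below every other library.

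Hsd3b1 (Entrez 15492, chr3:98842356-98859794) was steadier, with a range of 3.72-fold. At 3 months its level was 12.59, 12.81 and 13.18 log2 CPM with DEHP 20, 13.21, 12.43 and 13.01 with DEHP 200, 13.12, 13.01 and 12.44 with DiNP 20, 13.53, 12.82 and 13.52 with DiNP 100, and 12.61, 13.03 and 13.12 with vehicle. At 0 months it was 12.51, 12.22 and 12.28 log2 CPM with DEHP 20, 12.20, 12.93 and 11.64 with DEHP 200, 11.96, 11.98 and 12.76 with DiNP 20, 12.22, 11.88 and 12.85 with DiNP 100, and 12.15, 12.18 and 12.64 with vehicle. Most 3-month libraries lay above most 0-month libraries, and within each time every treated group overlapped vehicle. Per kilobase of transcript, its mean of 11.74 log2 CPM per kilobase was close to the 11.75 of Cyp11a1. The length used was that of the longest principal transcript in the GENCODE annotation, 1855 bases for Hsd3b1 and 2120 for Cyp11a1. The values depend on that choice. Hsd3b1 has near-identical copies in the mouse genome with which reads could be shared, so its level is uncertain to that extent. Of the related genes looked for, Hsd3b6 averaged -1.11 log2 CPM and Hsd3b7, a bile acid enzyme, 4.92 log2 CPM. Hsd3b2, Hsd3b3, Hsd3b4 and Hsd3b5 were not found among the deposited genes, so reads shared with them cannot be judged.

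Fdx1 (Entrez 14148, chr9:51943023-51963602) spanned 14.6-fold. At 3 months its level was 9.34, 10.33 and 10.38 log2 CPM with DEHP 20, 9.97, 8.53 and 10.28 with DEHP 200, 10.21, 10.19 and 9.66 with DiNP 20, 10.78, 9.78 and 11.38 with DiNP 100, and 9.29, 9.98 and 10.66 with vehicle. At 0 months it was 10.06, 8.34 and 9.37 log2 CPM with DEHP 20, 8.79, 10.77 and 7.51 with DEHP 200, 9.76, 9.52 and 9.58 with DiNP 20, 9.26, 9.05 and 10.55 with DiNP 100, and 9.02, 9.06 and 9.04 with vehicle. The 3 vehicle libraries at 0 months lay within 0.0379 log2 of each other, and of the 12 treated libraries at that time 8 lay above all of them and 3 below.

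Fdxr (Entrez 14149, chr11:115268024-115277101) had a lowest level of 7.78, a median of 8.53 and a highest level of 9.40 log2 CPM in the 15 libraries at 3 months, and 7.46, 8.26 and 9.29 log2 CPM in the 15 at 0 months. The times overlapped over most of their range. Nr5a1 (Entrez 26423, chr2:38692656-38714542) was the least variable of the 6, with an SD of 0.29 log2 between libraries of a group. Its lowest, median and highest levels were 7.86, 8.27 and 8.86 log2 CPM at 3 months and 7.62, 8.09 and 8.44 log2 CPM at 0 months. DEHP 200 replicate 3 at 0 months, which had the lowest level of each of the other 5 genes, had 8.18 log2 CPM of Nr5a1, close to its mean of 8.21 over all libraries.

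**Figure D1:**
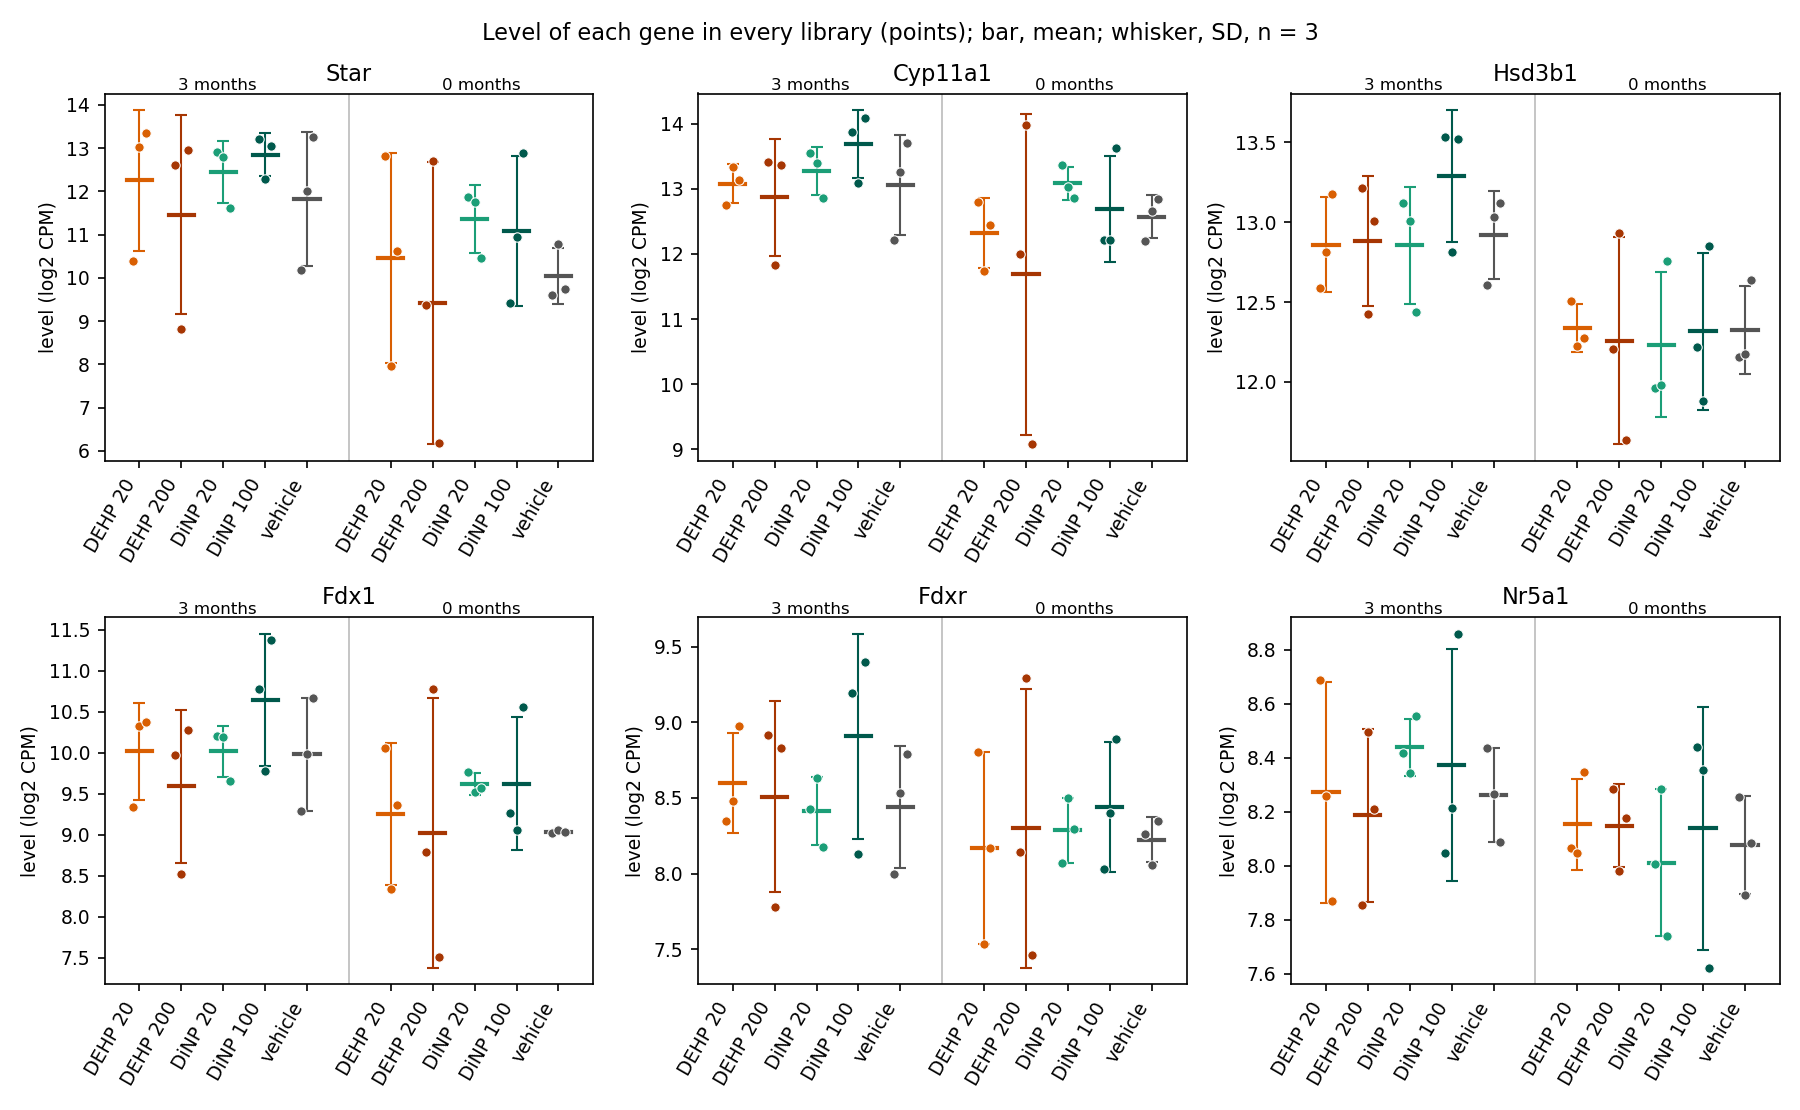
Levels of the 6 genes in log2 CPM (vertical axes, each on its own scale) for the 5 groups at 3 months and the 5 groups at 0 months; points are libraries, bars group means and whiskers SDs (n = 3). Star spans 6.18 to 13.34 log2 CPM with its lowest point in DEHP 200 at 0 months, and Nr5a1 spans 7.62 to 8.86.

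When the group means of each gene were put in order within each time, 0 of the 48 gaps between neighbours exceeded the larger of their SDs. For Star at 3 months the order was DiNP 100 (12.85 ± 0.50 log2 CPM, SD, n = 3 here and in the following values), DiNP 20 (12.45 ± 0.71), DEHP 20 (12.25 ± 1.62), vehicle (11.82 ± 1.55) and DEHP 200 (11.46 ± 2.30). For Star at 0 months it was DiNP 20 (11.36 ± 0.78), DiNP 100 (11.08 ± 1.73), DEHP 20 (10.46 ± 2.44), vehicle (10.05 ± 0.65) and DEHP 200 (9.42 ± 3.26). DEHP 200 had the lowest Star mean at both times, and the DiNP groups the highest, with no neighbours apart by more than their spread.

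None of the 6 genes passed the test for a treated group against vehicle. Genes were tested with limma over all 14740 genes, with Benjamini-Hochberg adjustment and a threshold of 0.05, and the 4 treated groups of a time share the same vehicle libraries. In each of the 8 comparisons 0 of 6 members were called, beside 0% of all tested genes. An unadjusted p under 0.05 was found for 0 of the 48 member values, the smallest being 0.249 for Cyp11a1 with DEHP 200 at 0 months. Of all tested genes it was found for 1.68% (DEHP 20), 1.44% (DEHP 200), 1.52% (DiNP 20) and 9.28% (DiNP 100) at 3 months, and for 2.37%, 5.02%, 2.08% and 1.75% in the same order of groups at 0 months. The count over all genes depended on single libraries. Without DiNP 100 replicate 2 at 3 months 633 genes were called in DiNP 100 against vehicle, and without vehicle replicate 3 at 0 months 1 gene was called in each of the 4 comparisons at that time, with 0 members each time. With array weights, whose fit stopped before convergence, 1781 genes were called with DEHP 20, 1481 with DEHP 200 and 788 with DiNP 20 at 3 months, again with 0 members.

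For Star, the fold change over vehicle at 3 months was 0.43 ± 1.36 log2 with DEHP 20 and -0.36 ± 1.36 with DEHP 200, and for the DiNP groups 0.63 ± 1.36 at 20 and 1.03 ± 1.36 at 100 ug/kg/day (standard error, 3 libraries a group). At 0 months it was 0.42 ± 1.36 log2 with DEHP 20 and -0.63 ± 1.36 with DEHP 200, and for the DiNP groups 1.31 ± 1.36 at 20 and 1.04 ± 1.36 at 100 ug/kg/day. Each standard error was larger than its estimate. The 95% interval for DiNP 20 at 0 months ran from -1.51 to 4.13 log2, so that changes within it could not be told apart with 3 libraries a group. With DiNP 100 the value at 0 months was 0.14 without its replicate 3 and 1.87 without its replicate 1, and at 3 months 0.21 without vehicle replicate 1 and 1.75 without vehicle replicate 3. Leaving out 1 library turned several Star signs. For DEHP 200 at 0 months the value was -2.27 without its replicate 2 and 0.99 without its replicate 3, and for DEHP 20 at 0 months it was -0.76 without its replicate 1 and 1.67 without its replicate 2.

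For Cyp11a1, the fold change over vehicle at 3 months was 0.02 ± 0.75 log2 with DEHP 20 and -0.19 ± 0.75 with DEHP 200, and for the DiNP groups 0.21 ± 0.75 at 20 and 0.63 ± 0.75 at 100 ug/kg/day. At 0 months it was -0.25 ± 0.75 log2 with DEHP 20 and -0.89 ± 0.75 with DEHP 200, and for the DiNP groups 0.52 ± 0.75 at 20 and 0.12 ± 0.75 at 100 ug/kg/day. The value for DEHP 200 at 0 months was 0.42 without its replicate 3 and -2.03 without its replicate 2. Smaller standard errors came with the steadier genes. The Hsd3b1 change lay between -0.09 ± 0.34 (DiNP 20 at 0 months) and 0.37 ± 0.34 log2 (DiNP 100 at 3 months), and that of Nr5a1 between -0.08 ± 0.23 (DEHP 200 at 3 months) and 0.18 ± 0.23 log2 (DiNP 20 at 3 months). Fdx1 lay between -0.39 ± 0.62 (DEHP 200 at 3 months) and 0.66 ± 0.62 log2 (DiNP 100 at 3 months), and Fdxr between -0.05 ± 0.40 (DEHP 20 at 0 months) and 0.47 ± 0.40 log2 (DiNP 100 at 3 months).

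**Figure D2:**
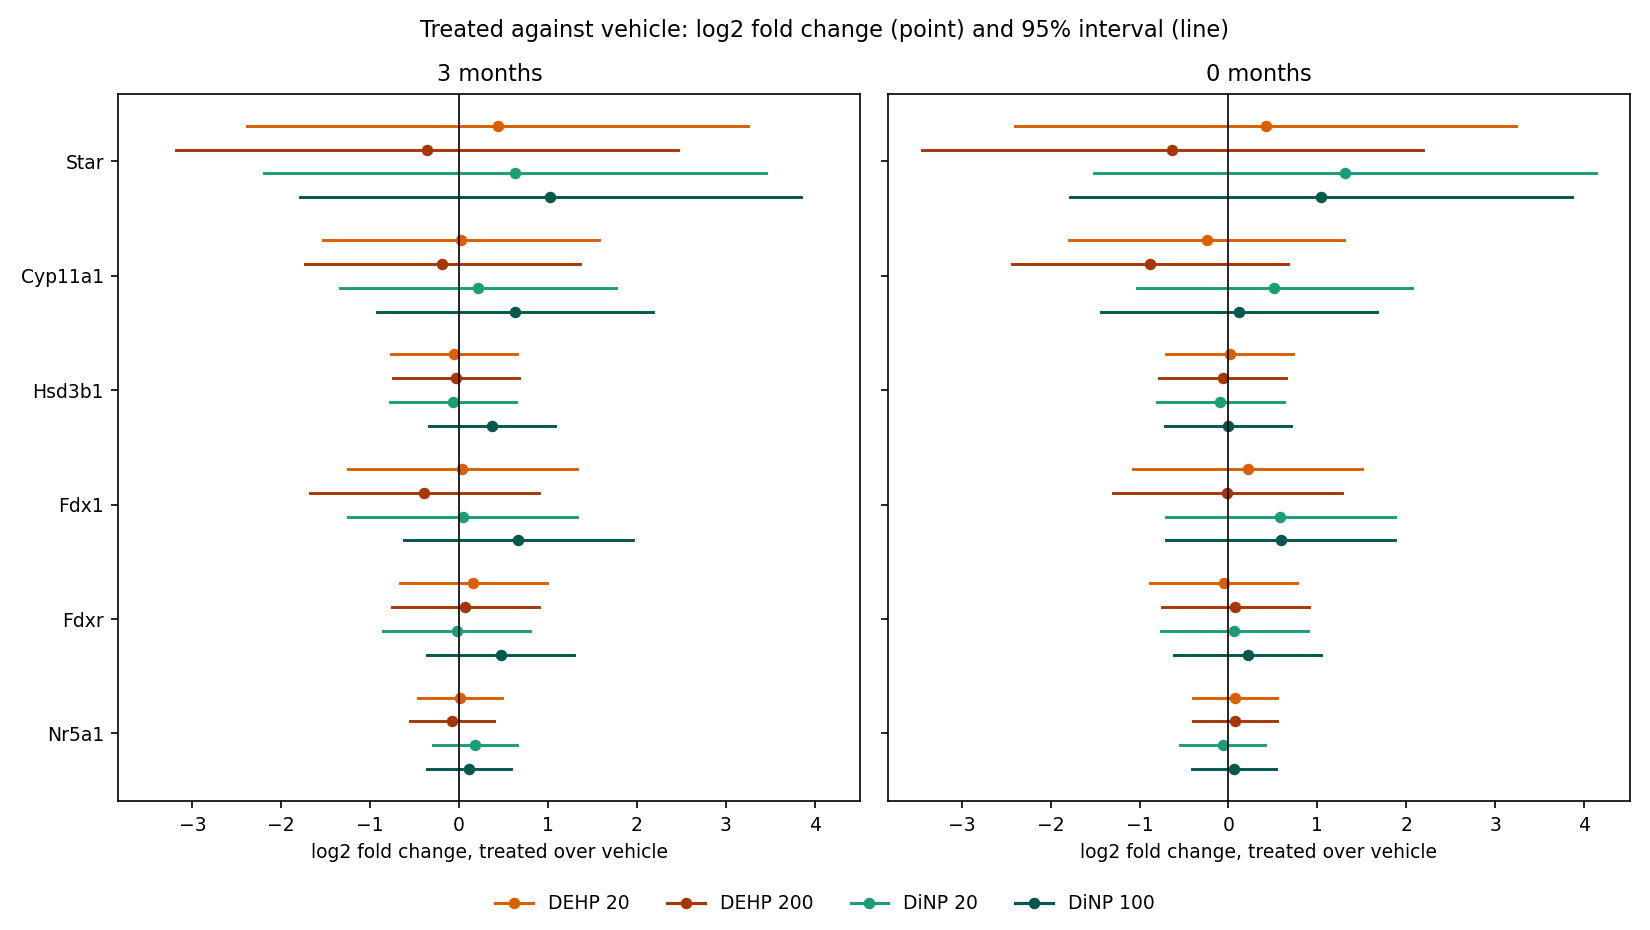
Log2 fold change of each gene in the 4 treated groups over vehicle (horizontal axis) at 3 months (left panel) and 0 months (right panel); points are limma estimates, lines 95% intervals, n = 3 libraries a group. All 48 intervals include 0, and they are widest for Star and narrowest for Nr5a1.

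In DiNP 20 against vehicle at 0 months the libraries of 2 of the 6 genes, Cyp11a1 and Fdx1, did not overlap and stood higher with DiNP 20, as groups did not overlap for 9.73% of all tested genes. Cyp11a1 averaged 13.09 ± 0.26 log2 CPM with DiNP 20 and 12.57 ± 0.33 with vehicle, and Fdx1 averaged 9.62 ± 0.13 with DiNP 20 and 9.04 ± 0.02 with vehicle (SD, n = 3 each). Neither was called by limma (adjusted p = 1.00 for both). The summed corpus luteum markers ran from 4584 to 11603 CPM in the DiNP 20 libraries and from 4119 to 6330 CPM in the vehicle libraries, and their part in the difference was not tested. In the other 7 comparisons with vehicle all 6 genes overlapped. There the groups did not overlap for 5.59% (DEHP 20), 5.27% (DEHP 200), 6.07% (DiNP 20) and 5.82% (DiNP 100) of all tested genes at 3 months, and for 9.4% (DEHP 20), 7.85% (DEHP 200) and 8.31% (DiNP 100) at 0 months.

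DEHP and DiNP are both diesters of phthalic acid and differ in their branched alkyl chains. They could be compared at 1 shared dose, 20 ug/kg/day, at 2 times, and 0 of the 6 genes were called at either, beside 0% of all tested genes. An unadjusted p under 0.05 was found for 0 of the 6 at both times, and for 2.9% of all tested genes at 3 months and 2.05% at 0 months. At 3 months the difference of DEHP 20 from DiNP 20 was -0.20 log2 for Star (95% interval -3.02 to 2.63), -0.19 for Cyp11a1 (-1.74 to 1.36) and 0.006 for Hsd3b1 (-0.70 to 0.72). It was -0.002 for Fdx1 (-1.29 to 1.29), 0.19 for Fdxr (-0.64 to 1.02) and -0.17 for Nr5a1 (-0.64 to 0.31). The intervals were wide for the variable genes and reached less than 1 log2 in either direction only for Hsd3b1 and Nr5a1.

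At 0 months the difference of DEHP 20 from DiNP 20 was -0.90 log2 for Star (-3.72 to 1.93), -0.76 for Cyp11a1 (-2.31 to 0.79) and 0.10 for Hsd3b1 (-0.61 to 0.81). It was -0.36 for Fdx1 (-1.65 to 0.92), -0.12 for Fdxr (-0.95 to 0.71) and 0.14 for Nr5a1 (-0.33 to 0.62). Cyp11a1 was the 1 gene of the 6 whose libraries did not overlap, lower with DEHP 20, as 9.57% of all tested genes did not overlap. The intervals do not show that the compounds acted alike.

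Between doses of 1 compound, 0 of the 6 genes and 0% of all tested genes were called in the 4 comparisons of DEHP 200 with DEHP 20 and of DiNP 100 with DiNP 20. The lowest of the 24 member values was -1.05 ± 1.36 log2 for Star, with DEHP 200 against DEHP 20 at 0 months, and the highest was 0.62 ± 0.62 log2 for Fdx1, with DiNP 100 against DiNP 20 at 3 months. None of the 24 had an unadjusted p under 0.05, as 0.957% (DEHP) and 12.2% (DiNP) of all tested genes had at 3 months and 3.95% (DEHP) and 0.583% (DiNP) at 0 months. Without DiNP 100 replicate 2 at 3 months, 1336 genes and 0 members were called in DiNP 100 against DiNP 20 at that time. A limma test of any treatment at each time, and one of treatment effects that differ between the times, called 0 of 6 members and 0% of all tested genes, where 2.20% (0 months), 3.99% (3 months) and 2.64% (treatment by time) had an unadjusted p under 0.05. Without DiNP 100 replicate 2 at 3 months the test of any treatment at 3 months called 5 genes and 0 members.

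Hsd3b1 was higher 3 months after dosing than at 0 months, over all 5 groups of each time. Its mean was 12.96 ± 0.35 log2 CPM at 3 months and 12.29 ± 0.37 at 0 months (SD, n = 15 each), a difference of 0.67 ± 0.15 log2 with an adjusted p of 0.0053 in limma. It was the 1 member of 6 called, where 10.6% of all tested genes were called higher and 9.63% lower, 20.3% together, so that the members' share was near that of all genes. An unadjusted p under 0.05 was found for 4 of 6 members and for 35.1% of all tested genes. Star averaged 12.17 ± 1.36 log2 CPM at 3 months and 10.47 ± 1.86 at 0 months, a difference of 1.69 ± 0.61 log2 that missed the threshold (adjusted p = 0.052). The difference was 0.74 ± 0.28 log2 for Fdx1 (limma adjusted p = 0.063), 0.72 ± 0.33 for Cyp11a1 (0.127), 0.29 ± 0.18 for Fdxr (0.256) and 0.20 ± 0.10 for Nr5a1 (0.165). Time since dosing and the age of the mice cannot be told apart.

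Calls of the other members turned on single libraries, and calls over all tested genes moved as well. With all 30 libraries 2986 genes were called, and with 1 left out 2147 to 4389, the most without DEHP 200 replicate 2 at 0 months. The pair left out next was chosen after the data were seen, and the share of all tested genes called without it is not reported here. Without both DEHP 200 replicates 2 and 3 at 0 months, 4 of the 6 genes were called: Hsd3b1, Star (1.70 log2, limma adjusted p = 0.039), Fdx1 (0.78, 0.029) and Cyp11a1 (0.66, 0.046). Star was also called when any 1 of 8 libraries was left out. These were DEHP 20 replicate 1, DEHP 200 replicate 2 and DiNP 100 replicate 3 at 0 months, and DEHP 20 replicate 1, DEHP 200 replicate 2, DiNP 20 replicate 3, DiNP 100 replicate 2 and vehicle replicate 1 at 3 months. Fdx1 was called without any 1 of the same libraries other than DiNP 20 replicate 3, and Cyp11a1 without DEHP 200 replicate 2 at 0 months (0.95). Without DEHP 200 replicate 3 at 0 months the difference was 0.46 for Cyp11a1, 1.37 for Star and 0.59 for Fdx1. Hsd3b1 was called whichever of the 30 libraries was left out (0.61 to 0.73 log2), and was not called after quantile normalization (0.17 log2, adjusted p = 0.18), which gives the most abundant genes of every library the same set of values.

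In vehicle ovaries alone, with 3 libraries at each time, the difference of 3 months from 0 months was 1.78 ± 1.36 log2 for Star, 0.49 ± 0.75 for Cyp11a1, 0.59 ± 0.34 for Hsd3b1, 0.94 ± 0.62 for Fdx1, 0.22 ± 0.40 for Fdxr and 0.19 ± 0.23 for Nr5a1. Of the 6 genes 0 were called, beside 0.00678% of all tested genes, and 0 had an unadjusted p under 0.05, beside 7.98%. Fdx1 was the 1 gene of the 6 whose libraries did not overlap, as 14.7% of all tested genes did not. With array weights 3 members were called in vehicle, Star (1.98), Hsd3b1 (0.68) and Fdx1 (0.94), with 3567 genes in all.

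**Figure D3:**
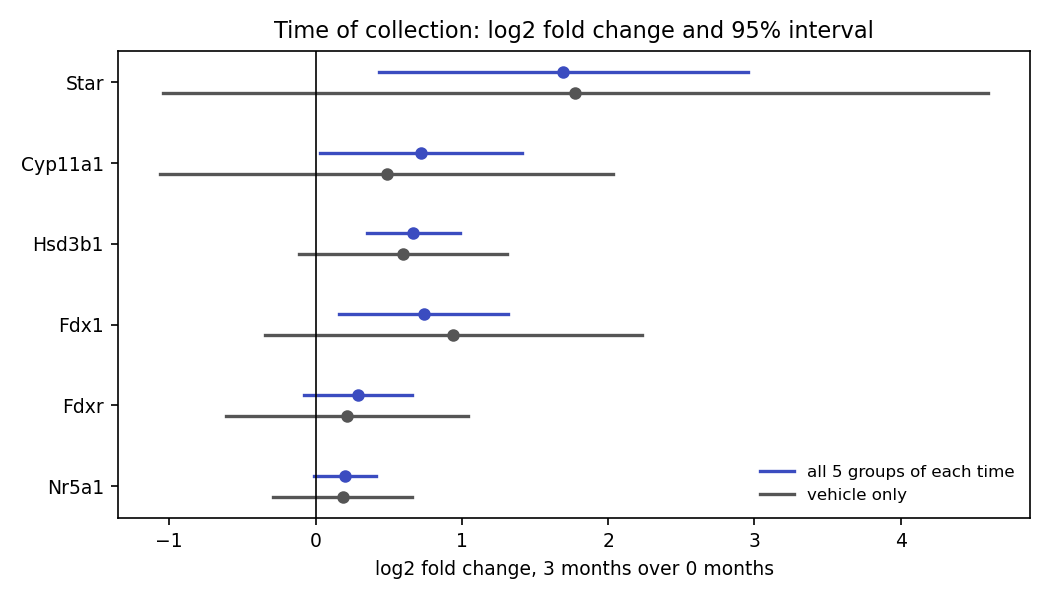
Log2 fold change of 3 months over 0 months (horizontal axis) for each gene, over all 5 groups of each time (upper point, blue) and in vehicle ovaries alone (lower point, grey); points are limma estimates and lines 95% intervals. All estimates lie above 0, and the vehicle intervals include 0 for all 6 genes.

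From library to library the 5 genes of the enzyme chain varied together. Over the 30 libraries Star and Fdx1 had a Pearson r of 0.94 (Spearman's rho 0.95), Cyp11a1 and Fdx1 0.91 (0.93), Star and Cyp11a1 0.90 (0.87), and Fdx1 and Fdxr 0.90 (0.85). Of the 15 pairs among the 6 genes, the 10 pairs without Nr5a1 had r between 0.73 and 0.94 and rho between 0.74 and 0.95. Each had a permutation p of 1e-05 for r and for rho, the smallest that 100000 permutations can give, and an adjusted p of 1e-05 over the 15 pairs. The lowest was Star with Hsd3b1 (r = 0.73, rho = 0.75). Without the 2 libraries farthest from the median, r of the 10 pairs lay between 0.67 and 0.93. Within 3 months it lay between 0.78 and 0.95, and within 0 months between 0.53 and 0.94, where Star with Hsd3b1 did not pass (adjusted p = 0.055, permutation test, n = 15). By rho 0 of the 4 Hsd3b1 pairs passed within 0 months, with 0.33 for Star (adjusted p = 0.24) and 0.52, 0.54 and 0.52 for Cyp11a1, Fdx1 and Fdxr (0.081 for each, permutation test).

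Nr5a1 had r between -0.14 and -0.05 and rho between -0.26 and -0.17 with the other 5 genes, and 0 of these 5 pairs passed over 30 libraries (adjusted p of r between 0.60 and 0.78, permutation test). When each library was taken as its deviation from its group mean, Nr5a1 was lower where the others were higher. The deviations of a group sum to 0, while the permutations treated all 30 as independent. The p-values of these deviations therefore tend to be too small, and those near the threshold are not firm. By r 3 of the 5 pairs passed, with -0.55 for Hsd3b1, -0.47 for Star and -0.37 for Fdx1 (adjusted p = 0.0020, 0.011 and 0.048, permutation test). By rho 5 of 5 passed, with -0.59 for Hsd3b1, -0.54 for Star, -0.46 for Fdx1, -0.40 for Cyp11a1 and -0.39 for Fdxr (adjusted p = 0.00074, 0.0026, 0.012, 0.033 and 0.036, permutation test). Within 0 months Nr5a1 with Hsd3b1 passed by r (-0.61, adjusted p = 0.024) and not by rho (-0.49, 0.088), and within 3 months Nr5a1 passed by rho with Star (-0.55) and Hsd3b1 (-0.55, adjusted p = 0.045 for both, permutation test) and not by r (-0.46 and -0.34, 0.12 and 0.26).

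**Figure D4:**
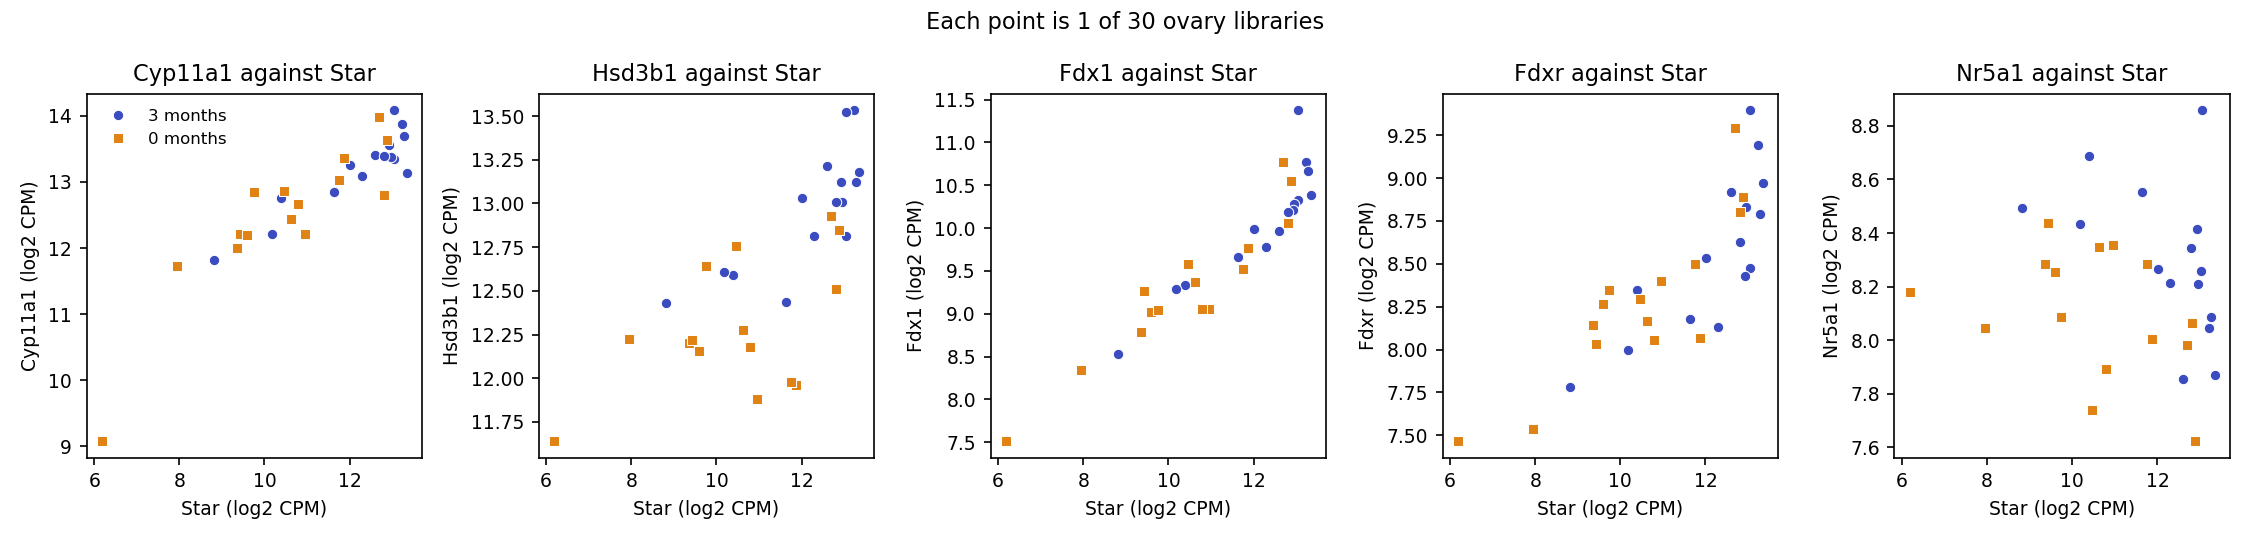
Level of each other gene (vertical axes, log2 CPM) against Star (horizontal axis, log2 CPM) in 30 libraries, blue circles for 3 months and orange squares for 0 months. Cyp11a1, Hsd3b1, Fdx1 and Fdxr climb with Star (r = 0.90, 0.73, 0.94 and 0.83), and Nr5a1 had an r of -0.14 with it.

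Genes outside the 6 with the closest pattern were found by Pearson r of log2 CPM over the 30 libraries among the tested genes, as a description of likeness only. For Star they included Madd, a regulator of Rab GTPases (r = 0.95), and Me1, which makes NADPH in the cytosol (0.95). For Cyp11a1 they were Avpi1 (0.95), Idh1, another source of cytosolic NADPH (0.94), and Mgst2, a microsomal glutathione transferase (0.93). Fdx1 was closest to Elovl1, which lengthens fatty acids (0.97), Mrap, an accessory protein of the ACTH receptor (0.97), and Atp6ap1, a part of the proton pump (0.96). Mrap is also among the adrenal cortex markers. Fdxr was closest to Rnf181 (0.94), Pcolce (0.94) and Cd151 (0.92), and Hsd3b1 to Lamp1, a lysosomal membrane protein (0.89), P2rx4, an ATP-gated channel (0.88), and Hadh, an enzyme of fatty acid oxidation (0.88). For Nr5a1 the closest were Fxyd1 (0.80), Hivep3 (0.80) and Cdk18 (0.79).

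Among the other 14739 tested genes, Fdx1 ranked 9 by r with Star, Cyp11a1 ranked 42, Fdxr 294, Hsd3b1 1000 and Nr5a1 8642. Genes with r over 0.9 numbered 45 for Star, 24 for Cyp11a1, 92 for Fdx1, 12 for Fdxr, 0 for Hsd3b1 and 0 for Nr5a1. The values come from the same 30 libraries, and neither depth nor cell mix was held constant.

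Markers of the ovary's cell types varied with the members. The 24 relations of the 6 genes with the mean level of 4 marker lists were chosen after the members' values had been seen, and their permutation p was adjusted over the 24. Luteal markers with the widest ranges, Akr1c18 (12232-fold), Sfrp4 (1077-fold) and Ptgfr (704-fold), weigh most in their list's mean, and r with single markers is not given. Lhcgr is in both the corpus luteum and the theca and interstitium lists. Star followed the mean of the 9 corpus luteum markers with r = 0.94 and rho = 0.93 over 30 libraries (adjusted p = 3e-05 for both, permutation test). Its r was 0.93 without the 2 libraries farthest from the median, 0.96 within 3 months and 0.91 within 0 months. For Cyp11a1, Fdx1, Fdxr and Hsd3b1, r with these markers was 0.95, 0.90, 0.78 and 0.76 and rho was 0.91, 0.90, 0.81 and 0.79 (adjusted p = 3e-05 for each, permutation test). For Nr5a1 r was -0.07 and rho -0.15 (adjusted p = 0.76 and 0.48, permutation test). Within 0 months Hsd3b1 did not pass (r = 0.54, adjusted p = 0.056, and rho = 0.24, adjusted p = 0.41, permutation test).

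Star was lower where the oocyte markers were higher, with r = -0.84 and rho = -0.85 over 30 libraries (adjusted p = 3e-05 for both, permutation test), r = -0.76 within 3 months and -0.89 within 0 months. With the granulosa markers r was -0.58 and rho -0.66, and with the theca and interstitium markers r was -0.64 and rho -0.68, and within a time neither passed by r. By rho Star passed with the theca and interstitium markers within 0 months (-0.71, adjusted p = 0.010, permutation test). Nr5a1 followed the theca and interstitium markers, with r = 0.47 and rho = 0.46 over 30 libraries (adjusted p = 0.011 and 0.013, permutation test), r = 0.65 within 3 months and 0.87 within 0 months. The part of the cell type mix in the members' levels was not tested.

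**Figure D5:**
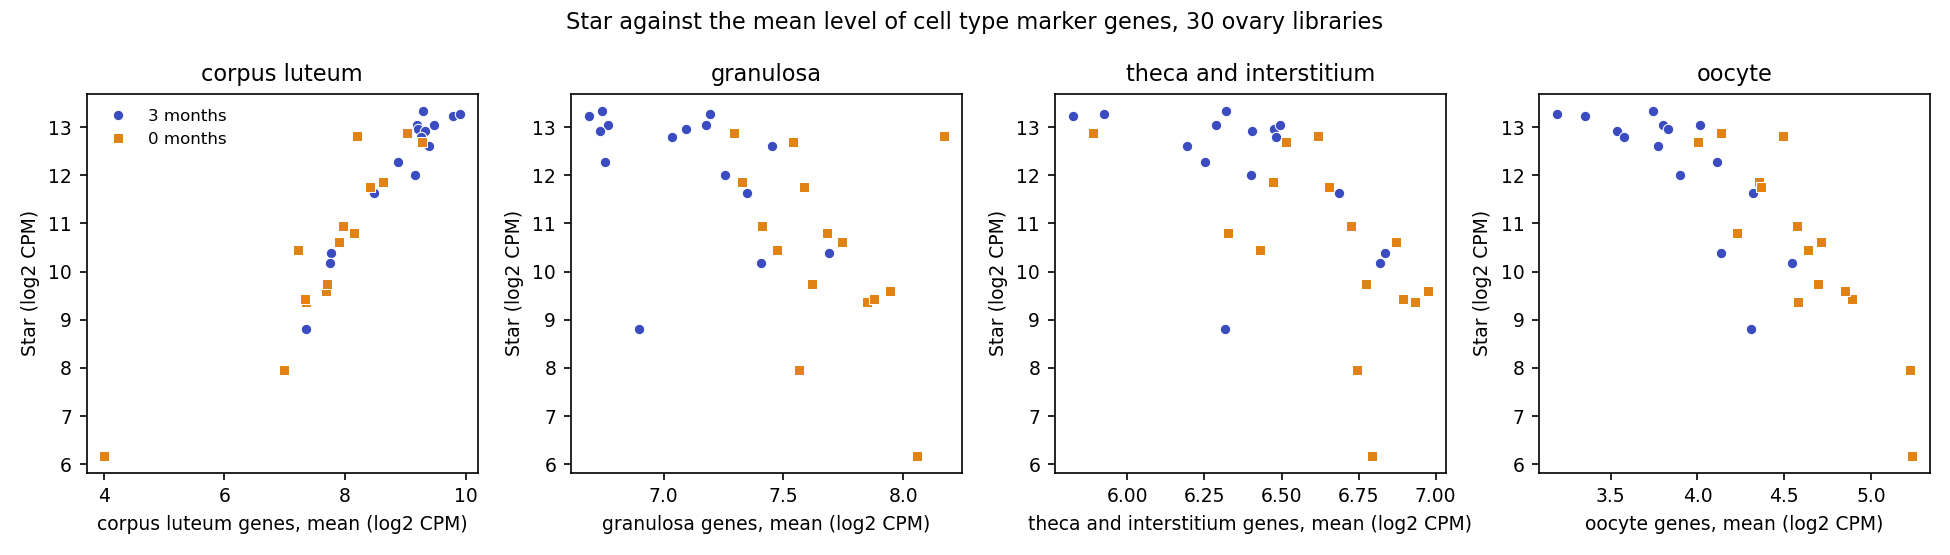
Star level (vertical axis, log2 CPM) against the mean log2 CPM of 4 marker lists (horizontal axes) in 30 libraries, blue circles for 3 months and orange squares for 0 months. Star climbs with the corpus luteum markers (r = 0.94) and is lower where the oocyte markers are higher (r = -0.84), and the library with the least Star has the lowest corpus luteum mean, 4.01.

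The marker lists also differed between the times, where 10.6% of all tested genes were called higher at 3 months and 9.63% lower. At 3 months against 0 months over all groups, 8 of the 9 corpus luteum markers had a positive difference and 3 were called higher, Akr1c18, Sfrp4 (2.05 ± 0.56 log2, limma adjusted p = 0.014) and Rgcc (1.59 ± 0.33, 0.0028). The list's median was 0.86 log2, beside 0.003 over all tested genes, and its summed level ran from 3443 to 23944 CPM at 3 months and from 579 to 13071 CPM at 0 months. Of the 11 granulosa markers 8 were called lower (median -0.51 log2), of the 10 oocyte markers 9 lower (median -0.74) and of the 9 theca and interstitium markers 3 lower (median -0.29). Of 4 tested leukocyte markers 4 were called higher (median 0.52), and of 6 stroma and smooth muscle markers 3 lower and 1 higher (median -0.32). Of the tested oviduct epithelium (4), endothelium (5), adipocyte (4) and adrenal cortex (2) markers 0 were called, with medians of 0.54, 0.23, -0.65 and -0.26. The part of these shifts in the members' differences between times was not tested.

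At 3 months against 0 months 10.6% of all tested genes were called higher and 9.63% lower, 20.3% together. The lists of genes around the 6 were not tested as sets, and the share of all tested genes with a positive difference is not reported here. Among these lists, genes that supply cholesterol had positive differences in 9 of 9 tested, with a median of 0.36 log2, and 1 was called. That was Apoe, which carries lipid (0.36 ± 0.11, limma adjusted p = 0.028), and it was not called without DEHP 200 replicate 1 (0.32) or replicate 3 (0.34) at 0 months. Scarb1, which takes cholesterol from high-density lipoprotein and is also among the luteal markers, differed by 0.86 ± 0.37 (limma adjusted p = 0.10). It did not pass, though it did without DEHP 200 replicate 2 at 0 months (1.06) or DEHP 200 replicate 2 at 3 months (1.05). Of 8 partners of the chain in mitochondria 1 was called higher, Tspo, an outer-membrane protein that binds cholesterol (0.74 ± 0.21, adjusted p = 0.018), and the list's median was 0.16.

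Of 7 tested genes that convert or sense progesterone, 3 were called higher at 3 months and 0 lower (median -0.04 log2). Over all tested genes 10.6% were called higher and 9.63% lower. Akr1c18, which inactivates progesterone in the mouse corpus luteum and is also among the luteal markers, differed by 3.43 ± 1.10 log2 (limma adjusted p = 0.032) and ran from -0.55 to 13.03 log2 CPM over the libraries. It was not called without any 1 of 8 libraries (2.75 to 3.37 log2). These were DEHP 20 replicate 2, DEHP 200 replicate 3, DiNP 100 replicate 1 and vehicle replicate 3 at 0 months, and DEHP 20 replicate 2, DEHP 200 replicates 1 and 3 and vehicle replicate 3 at 3 months. Srd5a1, which reduces progesterone, differed by 0.42 ± 0.12 (adjusted p = 0.018) and was not called with array weights (0.29, adjusted p = 0.10). Pgrmc1, a membrane protein linked to progesterone, differed by 0.34 ± 0.07 (adjusted p = 0.0025).

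The median of 13 regulators of the chain was 0.07 log2 at 3 months against 0 months. Of these 3 were called lower and 0 higher, beside 9.63% and 10.6% of all tested genes, 20.3% together. They were Nr5a2, a relative of Nr5a1 that acts in granulosa and luteal cells (-0.44 ± 0.13, limma adjusted p = 0.022), Foxl2, a granulosa cell factor (-0.34 ± 0.10, 0.023), and Gata6, a zinc finger factor (-0.33 ± 0.09, 0.013). Nr5a2 and Foxl2 are also among the granulosa markers given before. Of 14 tested hormone receptors and cyclic AMP genes, 3 were called higher and 1 lower, beside those shares (median 0.24). Pde4d and Pde8a, which break down cyclic AMP, differed by 0.96 ± 0.28 (adjusted p = 0.022) and 0.33 ± 0.08 (0.0072), Adcy9, which makes it, by 0.54 ± 0.15 (0.017), and Prkar2b, a subunit of protein kinase A, by -0.48 ± 0.10 (0.0038). Ptgfr, the prostaglandin F receptor, differed by 1.18 ± 0.56 (0.14) and Prlr, the prolactin receptor, by 0.58 ± 0.26 (0.12), and neither passed, while both did without DEHP 200 replicate 2 at 0 months (1.53 and 0.68). Without DEHP 200 replicate 3 at 0 months they differed by 0.67 and 0.40. Ptgfr and Prlr are also among the luteal markers.

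In the 8 comparisons of a treated group with vehicle 0 genes of these lists were called by limma, as were 0% of all tested genes. The list medians ran from -0.29 log2 (cholesterol supply with DEHP 200 at 0 months) to 0.28 log2 (cholesterol supply with DiNP 100 at 3 months).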

How the data were processed

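Whole-ovary mRNA was sequenced in 30 libraries, 10 groups of 3. Per the labels' protocols, libraries were stranded and read from one end. Per the submitters' processing notes, FastQC 0.11.8, Salmon 0.11.3, edgeR (version not given) and R 3.5.2 were used, with GRCm38.p6. The authors deposited a table of log2 CPM for 18022 genes, the unit of every level here. Back-transformed CPM summed to 907668 to 1164842 per library, and the lowest value was -3.343 log2 CPM. Whole reads could not be recovered: at the best step 24.7% to 59.3% of the 300 lowest values of a library lay within 0.05 of a whole read, so depth is unknown and no count test was run.

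The 14740 genes whose mean exceeded 0 log2 CPM were fitted with limma 3.58.1 (R 4.3.3), using 1 mean for each group, all 30 libraries together and a trended prior (20 residual and 2.85 prior degrees of freedom). P-values were adjusted by Benjamini-Hochberg over all genes of a comparison. Correlations used 100000 permutations (numpy 2.4.6, scipy 1.17.1). The fit was tested on simulated data with independent noise for each gene, while genes here varied together from library to library. That test therefore does not cover calls that turn on single libraries. Named genes are the 6 members, genes of fixed lists, and the 3 nearest genes of each member; values of a few of them are not reported here. Members and lists were chosen with earlier results of these data known. Other settings tried were quantile normalization, median centring, a filter at a mean of 2 log2 CPM or none, a pseudocount of 1 CPM, no trend, a robust prior, array weights, only the compared groups, a replicate block, each library left out and, chosen after seeing the data, DEHP 200 replicates 2 and 3 at 0 months left out together.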

Additional observations from a re-analysis of the deposited data

How the results depend on the processing

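Of 544 values of the 50 printed fold changes under alternatives other than leaving out 1 library, 10 had the opposite sign and 2 were 0, and of 444 with 1 library left out, 40 had the opposite sign. After quantile normalization 0 members were called between times, and Hsd3b1 with DiNP 20 at 0 months and Cyp11a1 with DEHP 200 at 3 months were at 0 over vehicle. Signs turned for Cyp11a1 with DEHP 20 (-0.13) and Hsd3b1 with DiNP 100 (-0.095) over vehicle at 3 months, and for Hsd3b1 (-0.18) and Fdx1 (0.042) in DEHP 20 against DiNP 20 at 3 months. Array weights, whose fit stopped before convergence, turned Cyp11a1 with DiNP 100 at 0 months (-0.15) and with DEHP 20 at 3 months (-0.067), Star with DEHP 200 at 3 months (0.21), and Star (0.027), Hsd3b1 (-0.064) and Fdx1 (0.080) in DEHP 20 against DiNP 20 at 3 months. They called 4 members between times over all groups and 3 in vehicle. They called 4490 genes between times, 3567 between times in vehicle, 1781, 1481 and 788 in DEHP 20, DEHP 200 and DiNP 20 against vehicle at 3 months, 2105 for any treatment at 3 months, 3 in DEHP 20 against DiNP 20 at 3 months and 1 in DEHP 200 against DEHP 20 at 0 months. That last comparison also had 1 gene called without trend and 1 without DEHP 200 replicates 2 and 3 at 0 months, where 4 members were called between times and 2 genes in vehicle. In vehicle, 0 genes were called between times with a mean log2 CPM over 2 or with only the compared groups fitted. The cause was not tested.

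Leaving out 1 library gave 1 to 4 members and 2147 to 4389 genes called between times, 1 to 3 genes between times in vehicle, 0 to 1 for treatment by time, for any treatment at 0 months and for each treated group against vehicle at 0 months, 0 to 5 for any treatment at 3 months, 0 to 633 in DiNP 100 against vehicle and 0 to 1336 in DiNP 100 against DiNP 20 at 3 months. Ranges in log2 that include both signs were as follows. In DEHP 20 against vehicle at 0 months the range was -0.76 to 1.67 for Star, -0.48 to 0.048 for Cyp11a1, -0.37 to 0.26 for Fdxr. In DEHP 20 against DiNP 20 at 0 months the range was -2.07 to 0.36 for Star, -0.032 to 0.37 for Hsd3b1, -0.77 to 0.095 for Fdx1, -0.44 to 0.20 for Fdxr. In DEHP 200 against DEHP 20 at 0 months the range was -2.69 to 0.57 for Star. In DEHP 200 against vehicle at 0 months the range was -2.27 to 0.99 for Star, -2.03 to 0.42 for Cyp11a1. In DiNP 20 against vehicle at 0 months the range was -0.35 to 0.068 for Hsd3b1. In DiNP 100 against vehicle at 0 months the range was -0.35 to 0.35 for Cyp11a1. In DEHP 20 against vehicle at 3 months the range was -0.39 to 1.37 for Star, -0.40 to 0.34 for Cyp11a1. In DEHP 20 against DiNP 20 at 3 months the range was -0.74 to 0.74 for Star, -0.20 to 0.14 for Hsd3b1, -0.18 to 0.34 for Fdx1, -0.37 to 0.034 for Nr5a1. In DEHP 200 against vehicle at 3 months the range was -1.18 to 0.96 for Star, -0.61 to 0.33 for Cyp11a1, -0.73 to 0.14 for Fdx1, -0.23 to 0.089 for Nr5a1. In DiNP 20 against vehicle at 3 months the range was -0.19 to 1.35 for Star, -0.21 to 0.54 for Cyp11a1.

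Correlations changed call for Star with Hsd3b1 (0.53) and Hsd3b1 with Nr5a1 (-0.61) within 0 months, and, as deviations from group means, for Nr5a1 with Star (-0.47), Hsd3b1 (-0.55) and Fdx1 (-0.37). The p-values of the deviations tend to be too small, since the permutations treated deviations of a group as independent. Libraries of the same replicate number did not deviate together (mean r -0.0446 at 3 months and -0.0221 at 0 months, and 8 of 30 correlated best with their own number). With a replicate block 1 member and 2678 genes were called between times (Hsd3b1 0.67, limma adjusted p = 0.012), and no member's call changed. Unknown depth limits what can be said of any library.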

Other observations

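Ratios between members were taken per kilobase of the longest principal GENCODE transcript of each gene and depend on that choice. Star over Cyp11a1 had a median of 0.217 and ran from 0.0381 in DEHP 20 replicate 2 at 0 months to 0.602 in DEHP 20 replicate 3 at 3 months. Hsd3b1 over Cyp11a1 had a median of 0.939 and ran from 0.432 in DiNP 20 replicate 1 at 0 months to 6.75 in DEHP 200 replicate 3 at 0 months, the library with the least Cyp11a1. Fdx1 over Fdxr, the electron carrier over its reductase, had a median of 5.44 and ran from 2.30 in DEHP 200 replicate 3 at 0 months to 8.78 in DiNP 100 replicate 3 at 3 months. Fdx1 over Cyp11a1 had a median of 0.264 and ran from 0.173 in vehicle replicate 3 at 0 months to 0.818 in DEHP 200 replicate 3 at 0 months.

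The 12 treated libraries of a time were also set against the range of the 3 vehicle libraries. For Star at 3 months 1 lay above the vehicle range, 1 below and 10 within, and at 0 months 6 lay above, 4 below and 2 within. For Cyp11a1 2 lay above, 1 below and 9 within at 3 months, and 5 above, 3 below and 4 within at 0 months. Libraries often fall outside the range of 3 others without any treatment effect, and these counts were not set beside all tested genes. Neither gene was called against vehicle by limma at either time. Cyp17a1, which turns progesterone and pregnenolone toward androgens in theca cells, ran from 4.22 to 10.09 log2 CPM over the 30 libraries.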
